A study of Mus musculus with 8 samples.

Results

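The genes described here are the splicing factors and RNA helicases found among the transcripts that differed between selenomethionine-treated and untreated MIN6-K8 cells. They were picked by symbol alone, from families named Srsf, Hnrnp, Sf3a, Sf3b, U2af, Prpf, Snrp, Lsm, Srrm, Rbm, Celf, Mbnl, Nova, Rbfox, Ddx, Dhx, Cpsf and Cstf. This gave 36 of the 3278 genes of the deposited table, out of 202 annotated protein-coding genes with such symbols. The others of the 202 were not analysed here. MIN6-K8 is a mouse insulinoma line that secretes insulin, labelled as wild-type with background strain IT6. RNA was sequenced from 4 libraries of cells given 40 µM selenomethionine (SeMet), a methionine analog that carries selenium in place of sulfur, for 6 days, and from 4 libraries of untreated cells. The title of the series places the comparison in the context of insulin secretion. The labels do not say that the 4 libraries of a group were separate cultures, so p-values speak only to the spread among these libraries, which may be technical.

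Introns are removed from pre-mRNA by the spliceosome, which is built from small nuclear ribonucleoproteins (snRNPs) named U1, U2, U4, U5 and U6 after their RNAs. SR proteins tend to promote the use of exons they bind, and hnRNPs often oppose them, so the balance of both helps to set alternative splicing. In endocrine and neural cells, further regulators of the CELF, MBNL, NOVA and RBFOX families shape exon choice. RNA helicases of the DEAD-box and DEAH-box families use ATP to unwind or remodel RNA during splicing, export, ribosome assembly and translation.

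The table holds genes that its name describes as differentially expressed, and how they were selected is not stated in the sources used here. Values are normalised counts: in each library every gene count appears to have been divided by the same factor. The listed genes held 8544454 to 11144953 reads per library at the step size found in each column, between 0.885 and 1.15 for 1 read. A check on the low values alone did not accept that step in most libraries, so these read totals are uncertain. All 36 members together took 1.49% to 1.57% of the listed sum in SeMet libraries and 1.41% to 1.46% in control libraries. Their summed normalised counts were 141990 ± 720 (mean ± SD) in SeMet libraries and 139068 ± 1210 in controls. The listed sum was lower in SeMet libraries (9083491 to 9440250) than in controls (9611601 to 9858266), which adds to the difference in share. The beta cell genes Ins2, Ins1 and Iapp had the highest counts of all listed genes, with Ins2 at 1169300 ± 54381 normalised counts in SeMet libraries and 1372600 ± 82803 in controls (mean ± SD of n = 4 libraries throughout). Of 18 beta cell markers 16 were listed, and 3 rose and 13 fell. Of 9 markers of other islet cells 4 were listed and all 4 rose, of 6 duct markers Krt7 was listed and rose, to 11248 ± 387 in SeMet libraries against 10118 ± 401 in controls, and of 10 stromal or endothelial markers Col1a1 was listed and fell. No acinar or immune marker was listed. Since genes were listed for differing, absence from the table says nothing about their levels. The part of these marker differences in the results below was not tested. In a bulk sample, fewer cells of a type and less RNA per cell cannot be told apart.

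Under SeMet, 24 of the 36 members were higher and 12 were lower, all by small amounts. No member reached an absolute log2 fold change of 0.32, whereas 36.1% of all listed genes did. The largest rise was in Mbnl2 (log2 fold change 0.27 ± 0.05, SE, here and below) and the largest fall in Celf6 (-0.21 ± 0.07). All 4 listed SR protein genes rose, as did the 3 listed genes of U1- and U2-specific proteins, while the hnRNP, SF3 and RBM families held members that rose and members that fell. Every member passed limma with Benjamini-Hochberg adjustment over the listed genes (limma adjusted p 8.69e-05 to 0.0149), but so did 3277 of the 3278 listed genes (100.0%), and nothing about the members is read from this. Higher calls made up 47.0% and lower calls 53.0% of all listed genes.

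The median log2 fold change over the members was 0.13, against -0.13 over all listed genes. The median absolute change was 0.16 in the members and 0.25 over the table. Among the 2092 other listed genes within the members' level range, from 546 to 13627 normalised counts, the median absolute change was 0.20, and 16.1% reached 0.32. SeMet and control libraries did not overlap for 26 members (72.2%), 18 higher and 8 lower, against 85.8% of all listed genes, 40.3% higher and 45.6% lower. An exact two-sided permutation test of the mean log2 values gave p = 0.0286 for each of these 26. This is the smallest that 4 against 4 libraries allow, and groups that do not overlap always give it, so it adds no support. For the 10 with overlapping groups the permutation test gave p = 0.0571 to 0.0857. No listed gene had an absolute log2 fold change under 0.08, which can be seen as the empty band around 0 in the plot of change against level.

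**Figure D1:**
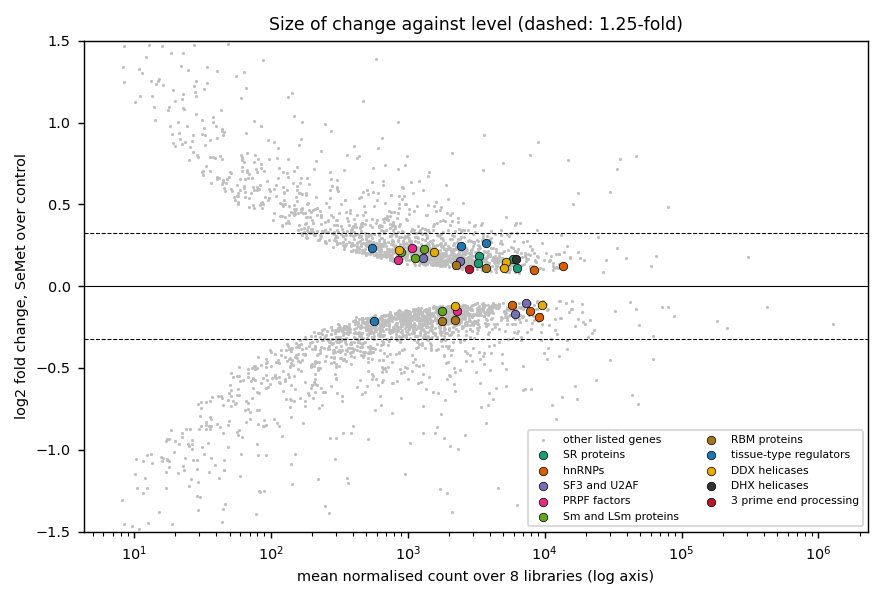
Log2 fold change of SeMet over control (vertical axis) against the mean normalised count over 8 libraries (horizontal log axis) for every listed gene. Coloured points are the 36 members by family, grey points other listed genes, 46 of which lie beyond the axis limit of 1.5. All coloured points sit between the dashed lines at 0.32 and -0.32.

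With p-values adjusted over all 55450 annotated genes (the genome-wide adjustment from here on), 20 members passed, 14 higher and 6 lower. Of all listed genes 71.4% passed this adjustment, 33.1% higher and 38.2% lower. The 16 members that did not pass had limma adjusted p-values of 0.0625 to 0.252. This count fell when any 1 library was left out, to between 11 and 18, and those fits have fewer samples. It was 12 without SeMet replicate 2, and 13, 12 and 11 without control replicates 1, 2 and 3. With plain instead of trended and robust variances it was 4. Shares of all listed genes under these settings are not given here, so nothing about the members is read from these drops. The count of members also depended on the scaling of the libraries. The listed genes fell more often than they rose, and rescaling the libraries by their median ratio raised every log2 fold change by 0.04, while rescaling to an equal sum raised it by 0.06. Both rescalings could use the listed genes alone, which were listed for differing, so neither is known to be a better scaling. After median ratio rescaling 24 members were higher and 2 lower genome-wide, where 45.0% of all listed genes were higher and 25.9% lower. After equal sum rescaling 24 were higher and 1 lower, against 45.8% and 22.5% of listed genes. Adjusted over the listed genes alone, median ratio rescaling gave 24 higher and 8 lower members, against 47.0% and 49.5% of listed genes. Equal sum rescaling gave 24 higher and 7 lower, against 47.0% and 44.6%. No member changed direction under either rescaling, as the plot of fold changes under 3 scalings shows.

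**Figure D2:**
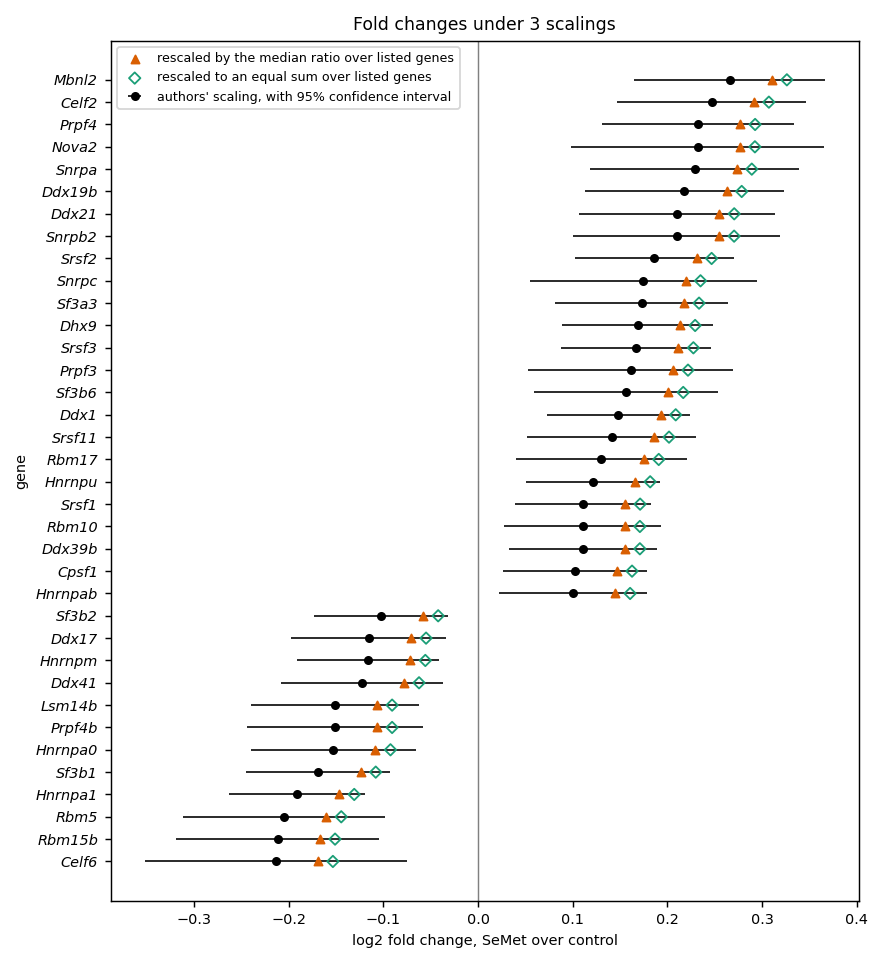
Log2 fold change of SeMet over control for each of the 36 members (horizontal axis), ordered by size. Black points with bars give the value and 95% confidence interval of the limma fit on the authors' scaling, triangles the value after rescaling by the median ratio and diamonds the value after rescaling to an equal sum. Both rescalings used the listed genes alone. The rescaled points lie 0.04 and 0.06 to the right of the black ones and on the same side of 0.

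Of 11 annotated SR protein genes of the Srsf series, 4 were listed and all 4 rose, with a median log2 fold change of 0.15. Srsf2 encodes a founding SR protein that binds exonic splicing enhancers (ENSMUSG00000034120, mm10 chromosome 11, 116849901 to 116853094). It had 3530, 3509, 3489 and 3555 normalised counts in SeMet libraries 1 to 4, against 2993, 2912, 3225 and 3263 in control libraries 1 to 4. The SeMet libraries lay within a narrow range, and all were above every control library (log2 fold change 0.19 ± 0.04, limma genome-wide adjusted p = 0.00722). Exons of Mettl23 on the other strand overlap 15.6% of Srsf2, and reads of the pair cannot be told apart here. Srsf3, the smallest SR protein and a factor also used in mRNA export, had 6189, 6595, 6187 and 6072 normalised counts in SeMet libraries, against 5389, 5412, 5796 and 5710 in controls. Its groups did not overlap either (log2 fold change 0.17 ± 0.04, limma genome-wide adjusted p = 0.0103). Pseudogenes and another gene share near-identical sequence with Srsf3, the longest match covering 49.5% of its transcript. Srsf1, which is known for selecting 5′ splice sites, averaged 6513 ± 139 in SeMet libraries and 6033 ± 159 in controls. Srsf11 averaged 3445 ± 138 in SeMet libraries and 3125 ± 168 in controls, with overlapping groups. These last 2 genes did not pass genome-wide (limma adjusted p = 0.0882 and 0.0747). Either rescaling of the libraries raised every log2 fold change, and after it all 24 members that rose passed. These 2 genes were among them, and nothing about them is read from this.

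The hnRNP genes went both ways. Of 20 annotated genes 5 were listed, 2 rose and 3 fell. Hnrnpa1, whose protein binds exonic and intronic silencers, had 8355, 8237, 8627 and 8618 normalised counts in SeMet libraries and 9478, 9821, 9947 and 9397 in controls (ENSMUSG00000046434, chromosome 15, 103240432 to 103246692). Every SeMet library was below every control library, and its limma genome-wide adjusted p was the lowest of the 36 members (log2 fold change -0.19 ± 0.03, limma adjusted p = 0.00147). Hnrnpa1 has 9 pseudogenes that match it at 95% identity or more, the longest match covering 58.2% of the transcript, so its count is uncertain. The related intronless gene Hnrnpa0 fell as well, with 7791, 7665, 7113 and 6829 in SeMet libraries against 8116, 8489, 8210 and 7843 in controls. Its groups came close without overlapping (log2 fold change -0.15 ± 0.04, limma genome-wide adjusted p = 0.0393). Hnrnpm, a regulator that binds GU-rich RNA, averaged 5583 ± 103 in SeMet libraries and 6055 ± 231 in controls. Its fall of 0.12 on the log2 scale was not called after median ratio rescaling (limma adjusted p = 0.0615) or equal sum rescaling (limma adjusted p = 0.154). Exons of March2 on the same strand overlap 14.7% of Hnrnpm.

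Hnrnpu, the most abundant member by count, encodes a nuclear scaffold protein that binds chromatin-associated RNA. It averaged 14201 ± 355 normalised counts in SeMet libraries and 13054 ± 111 in controls, without overlap (log2 fold change 0.12 ± 0.03, limma genome-wide adjusted p = 0.0467). Hnrnpab, the member with the highest level per kilobase of exon, had 9023 and 9010 in SeMet libraries 1 and 2 but 8237 and 8331 in SeMet libraries 3 and 4, against 7952 to 8235 in controls. The lowest SeMet library thus lay just above the highest control library. Its rise of 0.10 was not called without SeMet replicate 1 or 2, and Phykpl on the other strand overlaps 29.1% of its exons. The ratio of Srsf1 to Hnrnpa1 within a library does not depend on the scaling. These 2 genes are the textbook pair of opposing regulators, and the pair was chosen after its values were seen. The ratio was 0.741 to 0.797 in SeMet libraries and 0.59 to 0.651 in controls. The groups of each gene were already apart in opposite directions, so those of the ratio had to be apart, and this adds no support.

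**Figure D3:**
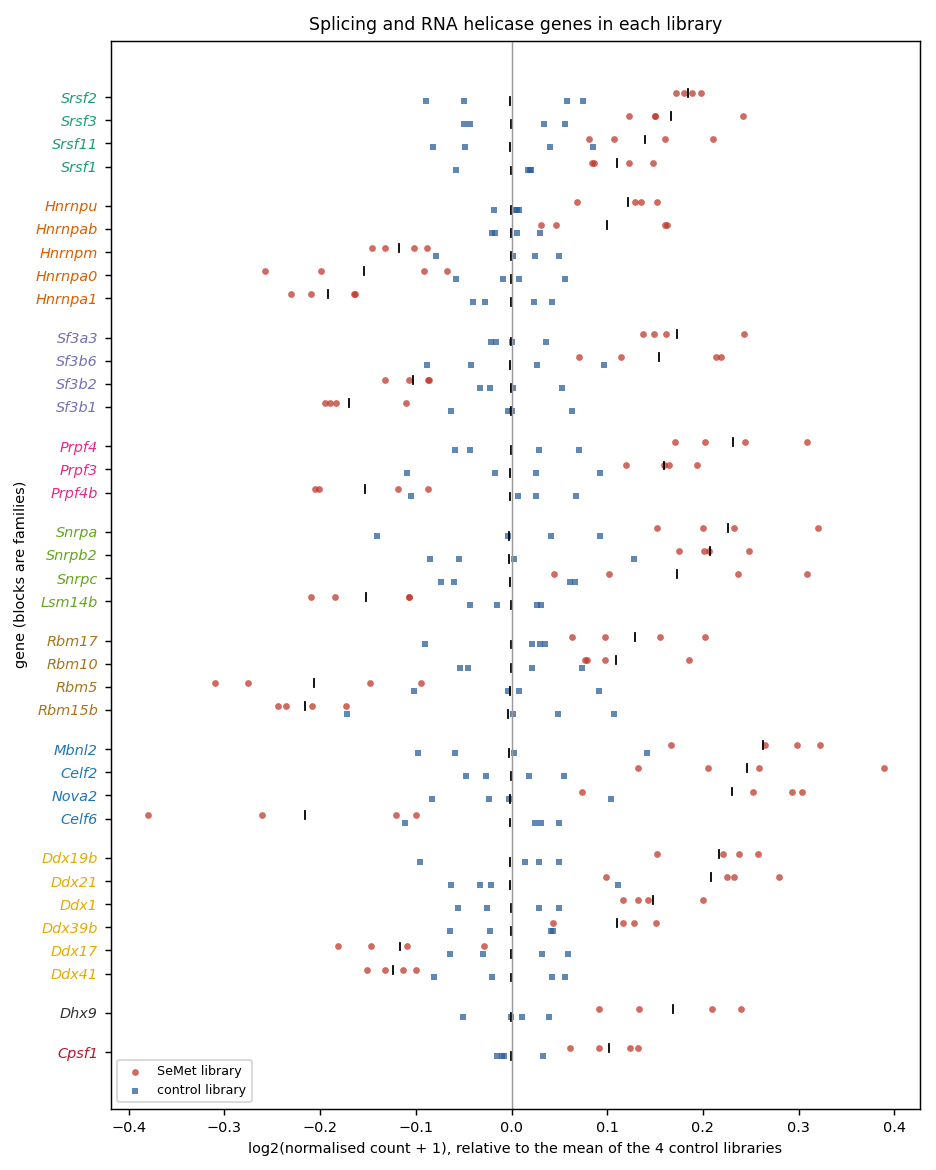
Values of the 36 members in each library, as log2(normalised count + 1) relative to the mean of the 4 control libraries (horizontal axis), by gene in blocks of families. Circles are SeMet libraries, squares control libraries and short black bars group means. In 26 genes all circles lie on one side of all squares, as for Srsf2 and Hnrnpa1, and in 10 the groups overlap, as for Celf6 and Snrpc.

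U1 snRNP recognises the 5′ splice site, and U2 snRNP, helped by the SF3A and SF3B complexes, binds the branch point. For Snrpa, which rose, and Sf3b1 and Sf3b2, which fell, the 120 bases before the RefSeq start are shown (GRCm38.p6, the assembly of mm10), because subunits of the same machinery moved in opposite directions. The windows of Snrpb2, Snrpc, Sf3a3 and Sf3b6 reach at least 30 bases into the GENCODE gene and are not printed, and that of Sf3b1 reaches 3 bases into it. Capitals mark matches on either strand to 7 motifs: the hypoxia response core ACGTG, the E-box CACGTG, which holds that core on both strands, the ATF4 composite element TGATGNAA, the ETS site CCGGAAG, the NRF1 palindrome, the CCAAT box CCAAT and the TATA box TATAAA.
Snrpa (chr7:27196272-27196391, minus strand): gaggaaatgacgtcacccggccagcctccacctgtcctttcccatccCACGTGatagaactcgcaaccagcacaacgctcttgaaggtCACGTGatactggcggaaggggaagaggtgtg
Sf3b1 (chr1:55027479-55027598, minus strand): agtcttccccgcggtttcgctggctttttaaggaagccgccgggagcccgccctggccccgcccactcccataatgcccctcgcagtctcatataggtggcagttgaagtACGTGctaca
Sf3b2 (chr19:5295456-5295575, minus strand): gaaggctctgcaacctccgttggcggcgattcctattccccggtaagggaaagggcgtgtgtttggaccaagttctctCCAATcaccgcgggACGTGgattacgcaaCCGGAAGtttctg
The promoter of Snrpa, which rose, holds 2 E-boxes. Of the genes that fell, Sf3b1 has the hypoxia core, and Sf3b2 has that core, a CCAAT box and the ETS letters. Over the 250 bases before the start, the ETS letters were found in 11 of 35 members with a RefSeq window (31.4%), 8 of 23 that rose and 3 of 12 that fell. They occur in 9.99% of 3252 windows of listed genes and in 6.91% of all 32851 windows. The 11 include Snrpb2, Snrpc, Sf3a3, Sf3b6 and others whose windows reach into the GENCODE gene. The hypoxia core occurred in 5 of 23 members that rose and 6 of 12 that fell, against 22.4% of listed windows. The E-box was found in 2 members and the ATF4 element in 1. The CCAAT box was found in 11, the TATA box in 5 and the NRF1 palindrome in 0, against 35.7%, 5.9% and 1.23% of listed windows. A match only says that the letters are present.

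Snrpa encodes the A protein of the U1 snRNP (ENSMUSG00000061479, chromosome 7, 27187005 to 27196271). It had 1401, 1523, 1355 and 1432 normalised counts in SeMet libraries and 1106, 1216, 1300 and 1255 in controls. The groups did not overlap (log2 fold change 0.23 ± 0.05, limma genome-wide adjusted p = 0.012). Exons of BC024978 on the other strand overlap 11.0% of Snrpa, and a pseudogene matches 62.6% of its transcript. Snrpb2, the U2-specific protein related to it, had 950, 982, 933 and 953 in SeMet libraries against 796, 779, 828 and 903 in controls, again with no overlap (log2 fold change 0.21 ± 0.05, limma genome-wide adjusted p = 0.0213). Snrpc, the C protein of the U1 snRNP, which stabilises pairing with the 5′ splice site, had 1256, 1320, 1099 and 1144 in SeMet libraries against 1013, 1112, 1022 and 1116 in controls. SeMet library 3 fell below 2 control libraries, and the rise of 0.17 ± 0.06 did not pass genome-wide (limma adjusted p = 0.12). No gene of the Sm ring itself was listed. The fourth listed gene of this group by name, Lsm14b, encodes an LSm-domain protein of cytoplasmic mRNA granules and not of an snRNP. It averaged 1688 ± 61.5 in SeMet libraries and 1874 ± 45.9 in controls (log2 fold change -0.15 ± 0.04, limma genome-wide adjusted p = 0.0464).

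Within SF3, the genes of 2 large SF3B subunits fell and those of 2 smaller SF3 subunits rose. Sf3b1 encodes the largest SF3B subunit, which clamps the branch point helix (ENSMUSG00000025982, chromosome 1, 54985169 to 55027481). It had 5653, 5628, 5945 and 5606 normalised counts in SeMet libraries and 6708, 6400, 6420 and 6144 in controls, all SeMet libraries being lower (log2 fold change -0.17 ± 0.04, limma genome-wide adjusted p = 0.00698). Sf3b2, its partner subunit, averaged 7036 ± 106 in SeMet libraries and 7557 ± 201 in controls. That fall of 0.10 was not called after the median ratio (limma adjusted p = 0.0926) or equal sum rescaling (limma adjusted p = 0.246). Sf3a3, a subunit of SF3A, had 1445, 1343, 1365 and 1353 in SeMet libraries against 1207, 1252, 1203 and 1221 in controls. The groups lay well apart (log2 fold change 0.17 ± 0.04, limma genome-wide adjusted p = 0.0238). Sf3b6, the small subunit found next to the branch point adenosine, averaged 2559 ± 130 in SeMet libraries and 2297 ± 129 in controls with overlapping groups (limma genome-wide adjusted p = 0.0679). The ratio of Sf3a3 to Sf3b1 within a library was 0.23 to 0.256 in SeMet libraries and 0.18 to 0.199 in controls, and that of Sf3b6 to Sf3b1 was 0.418 to 0.473 in SeMet libraries and 0.333 to 0.4 in controls. Both ratios were chosen after the values were seen and are given without a test. Sf3a3 and Sf3b1 were each apart in opposite directions, so their ratio had to be apart as well. Sf3b6 rose and Sf3b1 fell, so that ratio had to be higher on average under SeMet, and neither ratio adds support. Phf5a, a further small SF3B subunit outside the symbol families, rose to 1241 ± 90.5 in SeMet libraries, against 1006 ± 60.7 in controls (log2 fold change 0.30 ± 0.06, limma genome-wide adjusted p = 0.002).

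Of the 13 annotated Prpf genes 3 were listed. Prpf4 and Prpf3 encode proteins of the U4/U6 snRNP that bind each other. Prpf4 had 1145, 1233, 1179 and 1121 normalised counts in SeMet libraries against 966, 955, 1016 and 1046 in controls, with no overlap (log2 fold change 0.23 ± 0.05, limma genome-wide adjusted p = 0.00555). Prpf3 averaged 889 ± 18.7 in SeMet libraries and 796 ± 46.5 in controls, also without overlap, although its rise of 0.16 ± 0.05 did not pass genome-wide (limma adjusted p = 0.104). Their ratio was 1.26 to 1.43 in SeMet libraries and 1.21 to 1.31 in controls, so that the ratio of these partners overlapped. Prpf4b, a kinase that acts on proteins of the tri-snRNP, averaged 2188 ± 90.2 in SeMet libraries and 2431 ± 122 in controls with overlapping groups. Its fall of 0.15 was not called after rescaling to an equal sum (limma adjusted p = 0.0614). No Srrm or U2af gene was listed.

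Rbm genes encode proteins with RNA-recognition motifs and diverse roles, and 4 of 39 annotated ones were listed. Of these, 2 rose and 2 fell, and both that fell lie on chromosome 9. Rbm15b, which helps to bring the m6A methyltransferase to RNA (ENSMUSG00000074102, chromosome 9, 106880918 to 106887428), had 1628, 1701, 1619 and 1660 normalised counts in SeMet libraries against 2066, 1983, 1919 and 1703 in controls. Control library 4 came close to the highest SeMet library without crossing it (log2 fold change -0.21 ± 0.05, limma genome-wide adjusted p = 0.0172). Rbm5, a regulator of exon skipping in apoptosis genes (chromosome 9, 107740371 to 107770996), had 1953, 1907, 2134 and 2213 in SeMet libraries against 2358, 2203, 2519 and 2376 in controls. One SeMet library exceeded the lowest control library (log2 fold change -0.21 ± 0.05, limma genome-wide adjusted p = 0.0215). Its close relative Rbm10, also a regulator of exon skipping, averaged 3866 ± 140 in SeMet libraries and 3581 ± 150 in controls. Rbm10 did not pass genome-wide (limma adjusted p = 0.197), was not called without SeMet replicate 4, and has processed pseudogenes that match up to 72.0% of its transcript. The ratio of Rbm10 to Rbm5, chosen after the values were seen, was 1.8 to 1.98 in SeMet libraries and 1.47 to 1.57 in controls. Rbm10 rose and Rbm5 fell, so a ratio higher on average under SeMet had to follow and adds no support. Rbm17, a factor that acts at the 3′ splice site, averaged 2337 ± 99.4 in SeMet libraries and 2135 ± 86.7 in controls (limma genome-wide adjusted p = 0.128).

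Regulators named for tissue-specific splicing included the members with the largest changes, and 4 of 14 annotated genes were listed. Mbnl2 encodes a muscleblind protein that controls exon use during differentiation (ENSMUSG00000022139, chromosome 14, 120275669 to 120431697). It had 3820, 4091, 4254 and 4184 normalised counts in SeMet libraries and 3755, 3411, 3181 and 3268 in controls. SeMet library 1 lay only just above control library 1, and the other libraries were well apart (log2 fold change 0.27 ± 0.05, limma genome-wide adjusted p = 0.00178). Celf2, which binds GU-rich elements, had 2446, 2574, 2923 and 2672 in SeMet libraries against 2260, 2192, 2160 and 2318 in controls, without overlap (log2 fold change 0.25 ± 0.05, limma genome-wide adjusted p = 0.00292). Its relative Celf6 moved the other way, with 507, 559, 467 and 567 in SeMet libraries against 621, 629, 562 and 618 in controls. The highest SeMet library exceeded the lowest control library, and Celf6 did not pass genome-wide (limma adjusted p = 0.0848). The ratio of Celf2 to Celf6, a pair also chosen after the values were seen, was 4.61 to 6.26 in SeMet libraries and 3.48 to 3.84 in controls. Celf2 rose and Celf6 fell, so their ratio had to be higher on average under SeMet, and this adds no support. Nova2, best known as a neuronal splicing regulator, averaged 590 ± 42.4 in SeMet libraries and 502 ± 27.5 in controls with overlapping groups (log2 fold change 0.23 ± 0.06, limma genome-wide adjusted p = 0.042). Exons of the noncoding gene Gm26821 on the other strand overlap 31.7% of Nova2. No Rbfox gene was listed.

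The 7 listed helicases with Ddx or Dhx symbols share the ATP-binding core of their superfamily, and some share the box that names them. They are shown by the codons of this box, read from the GENCODE M21 coding sequences, because helicases with the same box moved in opposite directions. Capitals mark the 4 codons.
Ddx19b: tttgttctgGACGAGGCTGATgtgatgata
Ddx21: gttgtcctgGATGAAGTCGACcagatgttg
Ddx1: ctggtcctgGATGAAGCAGATgggcttctc
Ddx39b: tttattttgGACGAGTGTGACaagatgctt
Ddx41: ctagccctgGATGAAGCTGACcgcatgatt
Ddx17: cttgtgttgGATGAGGCTGACcggatgctt
Dhx9: gttattgtgGATGAAATTCATgaaagagat
Ddx1, Ddx17, Ddx19b and Ddx41 carry the codons for Asp-Glu-Ala-Asp, Ddx21 has Val and Ddx39b has Cys at the third place, and Dhx9 carries Asp-Glu-Ile-His. Those with the Asp-Glu-Ala-Asp box included 2 genes that rose and 2 that fell.

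Of 37 annotated Ddx genes 6 were listed, 4 rose and 2 fell. Ddx19b, a helicase of the nuclear pore that releases export factors from mRNA (ENSMUSG00000033658, chromosome 8, 111003188 to 111031751), had 936, 892, 960 and 947 normalised counts in SeMet libraries against 811, 751, 831 and 819 in controls. The groups did not overlap (log2 fold change 0.22 ± 0.05, limma genome-wide adjusted p = 0.0117). Its neighbour Ddx19a is near-identical over 8.31% of the transcript. Ddx21, a nucleolar helicase of ribosomal RNA production, had 1555, 1697, 1705 and 1762 in SeMet libraries against 1390, 1430, 1419 and 1568 in controls. SeMet library 1 was below control library 4, the other 3 were above it (log2 fold change 0.21 ± 0.05, limma genome-wide adjusted p = 0.014). Ddx1, a subunit of the tRNA ligase complex, averaged 5468 ± 139 in SeMet libraries and 4935 ± 165 in controls (log2 fold change 0.15 ± 0.04, limma genome-wide adjusted p = 0.018). Ddx39b, needed for spliceosome assembly and mRNA export, averaged 5234 ± 167 in SeMet libraries and 4849 ± 175 in controls with overlapping groups (limma genome-wide adjusted p = 0.143).

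Ddx17, a coregulator of splicing and microRNA processing, had 8737, 8948, 9182 and 9706 normalised counts in SeMet libraries against 10314, 9474, 10126 and 9701 in controls. SeMet library 4 exceeded 2 control libraries. Its log2 fold change of -0.12 ± 0.04 was not called after median ratio rescaling (limma adjusted p = 0.0856) or equal sum rescaling (limma adjusted p = 0.194). Ddx41, a nuclear helicase linked to splicing, averaged 2128 ± 33.3 in SeMet libraries and 2319 ± 100 in controls, and was likewise not called after either rescaling (limma adjusted p = 0.0787 and 0.164). Exons of the antisense gene Gm46416 overlap 17.4% of Ddx41. Dhx9, which unwinds double-stranded RNA, was the sole listed gene of 16 in the Dhx family. It had 6184, 6367, 6850 and 6709 in SeMet libraries against 5603, 5801, 5847 and 5964 in controls, without overlap (log2 fold change 0.17 ± 0.04, limma genome-wide adjusted p = 0.0101). Cpsf1, the scaffold of the complex that reads the polyadenylation signal, was the sole listed gene of 11 named Cpsf or Cstf. It averaged 2927 ± 65.5 in SeMet libraries and 2727 ± 42.1 in controls (limma genome-wide adjusted p = 0.19).

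Levels of different genes were compared as normalised counts per kilobase of merged exons. On this scale Hnrnpab, Hnrnpa0 and Hnrnpa1 were highest, at 3004, 2897 and 2874 averaged over all 8 libraries, followed by Ddx39b at 1333 and Ddx17 at 1246. Celf2 and Nova2 were lowest, at 94.4 and 65.2. In controls Hnrnpa0 and Hnrnpa1 stood above Hnrnpab, and in SeMet libraries Hnrnpab stood above both, as the plot of levels per exon length shows. Merging the exons of all isoforms lengthens a gene, so this scale understates genes with many long isoforms such as Celf2.

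**Figure D4:**
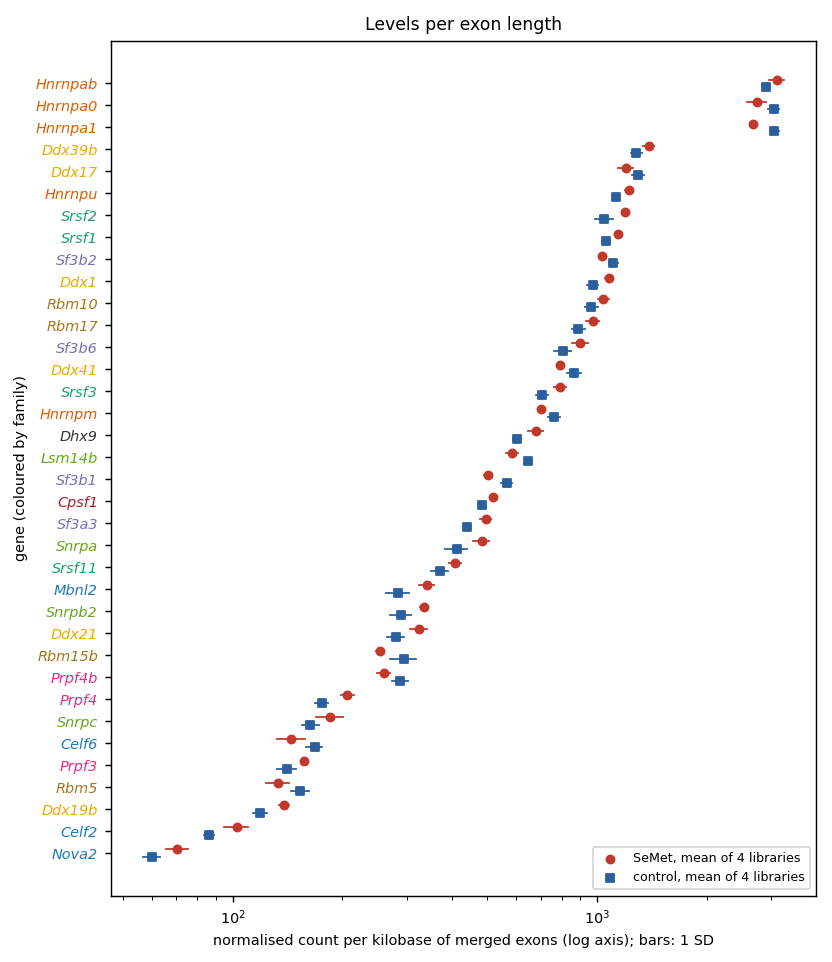
Level of each member as normalised counts per kilobase of merged exons (horizontal log axis), with genes ordered by their mean over all libraries. Circles are the means of 4 SeMet libraries, squares those of 4 control libraries and bars 1 SD. Levels run from about 65.2 for Nova2 to 3004 for Hnrnpab, and the 2 groups differ little beside this range.

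Features that the symbols do not fix are given beside those of the 3110 listed protein-coding genes or, for promoters, of the windows of listed genes. Members lay on 16 chromosomes, with at most 4 on any one. The annotation gives transcripts marked for nonsense-mediated decay for 15 of 36 members (41.7%), 10 of 24 that rose and 5 of 12 that fell, and for 26.6% of listed protein-coding genes. It gives retained-intron transcripts for 25 members (69.4%) and for 58.6% of listed protein-coding genes. The median number of annotated transcripts was 6 in members and 5 in listed protein-coding genes, and the median GC content of the longest coding transcript was 49.8% in members and 51.1% in listed protein-coding genes. The 250 bases before the start held a median of 19 CpG dinucleotides in members, 16 in windows of listed genes and 6 over all windows. The values count whole genes, so which isoforms were present was not analysed here. Of the symbol families 17.8% of annotated protein-coding genes were listed, against 14.2% of all protein-coding genes.

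Genes of the same processes with other symbols were drawn from lists of known factors. Of 169 such genes 35 were listed, 21 rose and 14 fell, with a median log2 fold change of 0.12, and 18 passed genome-wide, 8 of them higher and 10 lower. Of 56 further spliceosome proteins 10 were listed, and 9 rose and 1 fell. Ppih, a cyclophilin of the U4/U6 snRNP that binds Prpf4, rose to 361 ± 16 in SeMet libraries, against 290 ± 23.3 in controls (log2 fold change 0.32 ± 0.08, limma genome-wide adjusted p = 0.013). Isy1, of the catalytic spliceosome, was the gene that fell, with 213 ± 18.2 in SeMet libraries and 269 ± 28.0 in controls and overlapping groups (limma genome-wide adjusted p = 0.049). Of 11 genes of SR protein kinases and related factors, Clk3 and Dyrk1a were listed and both fell. Dyrk1a had 2186, 2224, 2193 and 2199 in SeMet libraries against 2775, 2557, 2400 and 2347 in controls (log2 fold change -0.19 ± 0.05, limma genome-wide adjusted p = 0.0177).

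Of 41 other splicing regulators 13 were listed, 7 rose and 6 fell. The epithelial regulators Esrp1 and Esrp2 both fell. Esrp2 was at a low level, with 18.2, 18.6, 10.9 and 9.26 normalised counts in SeMet libraries against 39.1, 37.7, 21.1 and 27.4 in controls (log2 fold change -1.10 ± 0.28, limma genome-wide adjusted p = 0.0213). Of 4 paraspeckle components, the scaffold RNA Neat1 and the protein gene Nono were listed. Neat1 had 8219, 8598, 10984 and 12147 in SeMet libraries against 4733, 4788, 6821 and 6618 in controls, without overlap (log2 fold change 0.80 ± 0.195). In both groups libraries 1 and 2 were lower than libraries 3 and 4. Neither gene passed genome-wide in the main fit (limma adjusted p = 0.11 and 0.383). With a replicate block Neat1 passed (limma genome-wide adjusted p = 7.86e-08), although replicate numbers did not pair the libraries over all listed genes.

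Of 14 genes of the exon junction complex and nonsense-mediated decay 3 were listed, and the paralogs Upf3b and Upf3a went opposite ways. Upf3b averaged 1818 ± 66.5 in SeMet libraries and 1600 ± 65.7 in controls (limma genome-wide adjusted p = 0.0177), and Upf3a 541 ± 40.7 in SeMet libraries and 630 ± 58.4 in controls (limma genome-wide adjusted p = 0.104). Of 15 further genes of 3′ end processing and poly(A) binding, Pabpc1 was listed. This poly(A)-binding protein gene had 10844, 10811, 11066 and 10691 in SeMet libraries against 13128, 13750, 13061 and 12302 in controls (log2 fold change -0.27 ± 0.04, limma genome-wide adjusted p = 9.55e-05). None of 14 mRNA export genes was listed. Of 16 RNA helicases with other symbols 4 were listed, 1 rose and 3 fell. Mov10, which acts in RNA silencing, averaged 164 ± 16.1 in SeMet libraries and 231 ± 15.9 in controls (log2 fold change -0.50 ± 0.10, limma genome-wide adjusted p = 0.00267). Recql, a DNA helicase placed in this list by name, averaged 1080 ± 51.5 in SeMet libraries and 968 ± 34.5 in controls (limma genome-wide adjusted p = 0.0877). The translation helicase Eif4a2 averaged 9838 ± 355 in SeMet libraries and 11582 ± 404 in controls (limma genome-wide adjusted p = 0.000399).

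**Figure D5:**
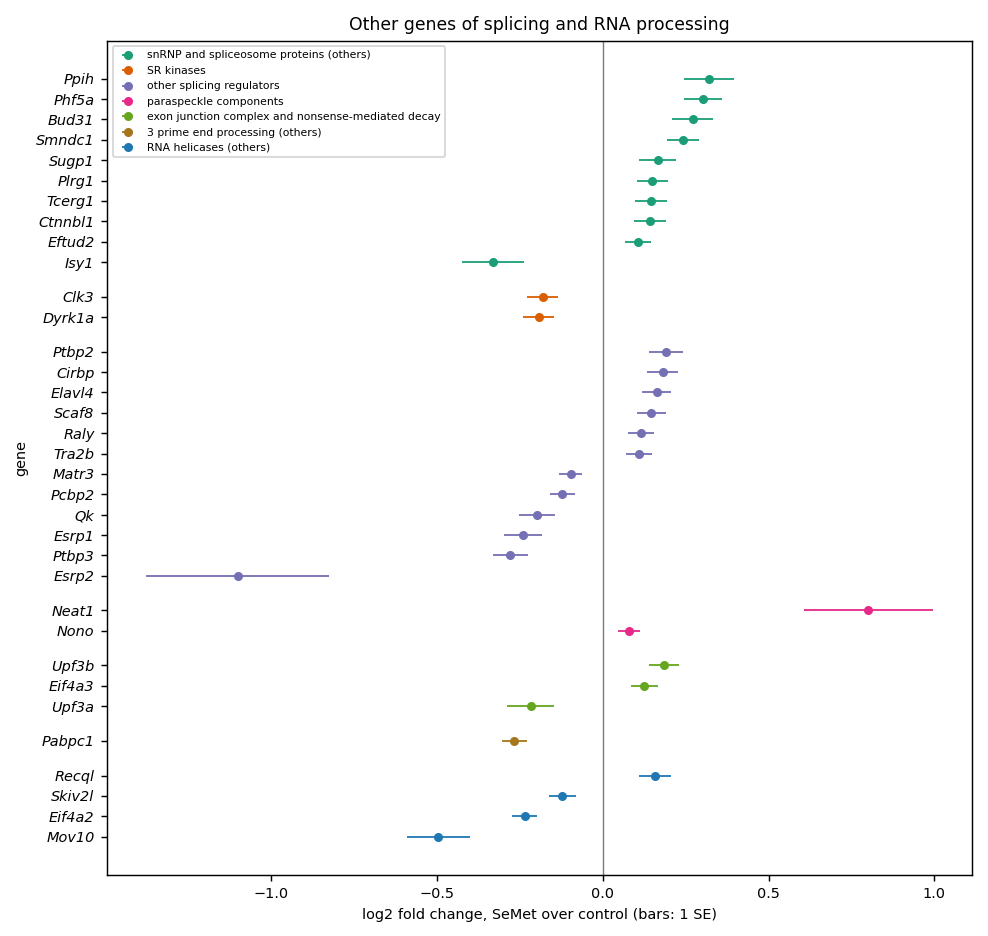
Log2 fold change of SeMet over control (horizontal axis) with bars of 1 SE for 34 listed genes of splicing and RNA processing that have other symbols, coloured by list. Of these, 20 lie right of 0 and 14 left of it, with Neat1 and Esrp2 farthest out at 0.80 and -1.10.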

How the data were processed

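RNA sequencing values of 4 SeMet and 4 control libraries of MIN6-K8 cells were analysed. Per the labels' protocols, RNA was isolated on RNeasy columns and libraries were made with an NEBNext Ultra RNA kit. The submitters' processing notes name STAR, featureCounts and mm10. Their versions and settings, the annotation and the strandedness are not stated in the sources used here. The deposited table holds a signal per gene and library, read from the values as gene counts divided by 1 size factor by the authors. All values were whole multiples of 1 step per library (within 0.0001 of a whole number). A check on the low values alone did not accept that step in most libraries, so no count-based test was run.

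Log2(value + 1) was fitted over all 3278 listed genes with limma 3.58.1 (R 4.3.3), with trended and robust variance and treatment as the only term. The Benjamini-Hochberg adjustment (threshold 0.05) was made over the listed genes and also genome-wide, over 55450 annotated genes with unlisted genes at a p of 1. No filter on low values was applied, and log2 fold changes refer to log2(value + 1). Means ± SD were computed on the normalised counts. Symbols (3276 of 3278 identifiers matched), positions and overlaps came from GENCODE M21 on GRCm38, copies from BLAST 2.17.0 (identity of at least 95% over at least 200 bases) and promoters from RefSeq, where 35 of 36 members had a window. The window nearest the annotated gene start was used. The scripts were tested on simulated data.

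Named members were the 10 largest rises, the 10 largest falls and, per family, the member of largest change and of highest level per kilobase, and in each further list the largest rise and fall. Phf5a, Clk3, Nono, Esrp1 and Eif4a2, and members outside that rule, were named after their values were seen. One gene that the rule names is not reported here. The members and gene lists were chosen with earlier results of these data known, and the motifs after the fold changes were seen. Alternatives were other pseudocounts, a low-value filter, 2 rescalings, plain variances, a replicate block and leaving out each library.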

Additional observations from a re-analysis of the deposited data

Results flagged for a closer look

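In 6 of the 72 sets of 4 libraries (36 members in 2 groups), 1 library stood apart from the other 3, where chance flags about 1 in 20. Sf3b1 was at 5945 normalised counts in SeMet replicate 3, against 5606 to 5653 in the other SeMet libraries. Among controls, Rbm17 was at 2005 in replicate 1 against 2167 to 2187, and Hnrnpu, also in replicate 1, at 12890 against 13090 to 13130. Srsf1 was at 5794 in control replicate 2 against 6104 to 6119. In control replicate 3, Cpsf1 was at 2789 against 2697 to 2713 and Celf6 at 562.3 against 618.3 to 629.2. All 6 genes were called with the same direction without that library, with adjustment over the listed genes.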

How the results depend on the processing

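Under 15 alternatives, no member changed direction. With adjustment over the listed genes, Ddx17, Ddx41, Sf3b2 and Hnrnpm were not called after median ratio rescaling, nor were these and Prpf4b after equal sum rescaling (Ins1, Ins2 and Iapp left out of the sum), which left 7 lower calls. Rbm10 was not called without SeMet replicate 4, nor Hnrnpab without SeMet replicate 1 or 2. Leaving out 1 library gave 35 to 36 calls, against 3260 to 3269 of the 3278 listed genes. In those fits 0 members reached an absolute log2 fold change of 0.32. Equal sum rescaling brought 1 member, Mbnl2, to 0.33. The members' median log2 fold change was 0.17 and 0.19 after the median ratio and equal sum rescalings, and that of related genes 0.16 and 0.18. Genome-wide, the 20 calls became 4 with plain variances (3 higher, 1 lower), and 24 higher with 2 or 1 lower after the rescalings. Leaving out 1 library gave 11 to 18 calls, 8 to 14 higher and 2 to 5 lower. The higher calls numbered 8 without SeMet replicate 2 or control replicate 1 or 2 and 9 without control replicate 3. The lower calls numbered 3 without SeMet replicate 3 and 2 without control replicate 3. Those fits have fewer samples, and the cause of the drops was not tested. Replicate numbers did not pair the libraries (correlations of deviations -0.01 to 0.15, and 1 of 4 SeMet libraries correlated best with its own number). With a replicate block, 36 members passed over the listed genes, where 3272 of all 3278 listed genes did. Genome-wide 17 members passed with it, without Hnrnpu, Lsm14b and Sf3a3. Genome-wide shares of all listed genes with plain variances, 1 library left out or the block are not given here. Nothing about the members is read from those counts. Of the 35 related genes 15 passed genome-wide with the block and 18 without it, and 13 passed in both fits. The block thus lost more of these genes than it gained. Neat1 passed with the block only (limma adjusted p = 7.86e-08).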
